A study of Mus musculus with 3 samples.

Results

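The cells described here are the amacrine cells of cultured mouse retinal explants. They are the cells of the explant library that the deposited annotation names amacrine cells, and they number 1372 of the 5607 explant cells, or 24.5%, among 14611 cells in the whole series. The library pooled 8 explants of wild-type CD1 mice. Retinas were taken on embryonic day 14 (E14) and kept on membranes for 6 days, to the equivalent of postnatal day 0 (P0), in medium with 0, 5, 50 or 500 nM of a small-molecule agonist of the somatostatin receptor Sstr2. There were 2 explants per dose, and the controls at 0 nM went through the same culture. A lipid-anchored barcode gave the explant of each cell, and transcripts were counted by unique molecular identifiers (UMIs). How many retinas made up an explant sample is not given in the sources used here, so the spread between samples may be partly technical.

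Amacrine cells are the interneurons of the inner retina. Most release GABA or glycine onto bipolar cells, ganglion cells and other amacrine cells. They arise before and around birth from neurogenic progenitors that express *Ptf1a*, a bHLH factor needed for amacrine and horizontal cells, and newborn amacrine cells then switch on the AP-2 factors *Tfap2a* and *Tfap2b*. Sstr2 is coupled to inhibitory G proteins.

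Amacrine cells numbered 355 and 124 in the controls. With 5 nM there were 66 and 174, with 50 nM 102 and 193, and with 500 nM 163 and 195. Their UMIs summed to 1678143 and 581481 in the controls. The sums were 316855 and 823700 for 5 nM, 476443 and 903830 for 50 nM, and 778809 and 840605 for 500 nM. The 5 nM replicate 1 explant thus gives the least precise values. The median amacrine cell held 4742.5 UMIs and 2097.5 genes, against 2642.5 UMIs in photoreceptors and 3079.5 in the cells named retinal ganglion cells (RGCs). No deposited explant cell had more than 2499 genes, and 7.51% of the amacrine cells had at least 2400. Scrublet, which scores likeness to simulated doublets, marked 24 of the amacrine cells, 11 of them in 500 nM replicate 2. The explant library shared 9 cell barcodes with the P0 library and 4 with that of P14, and none of its amacrine barcodes occurred in the P0 library.

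The explants differed in sex, and this split ran with dose. *Xist*, the RNA of the inactive X chromosome, was detected in 99.4% and 97.9% of amacrine cells at 500 nM, with Y-linked UMIs in 0.613% and 1.03%. In 5 nM replicate 1 the shares were 98.5% and 0%, where 0 of 66 cells allows a share of up to 4.55%. In the other 5 explants *Xist* was found in 55.5% to 63.7% and Y-linked UMIs in 25.5% to 31.8% of amacrine cells, so these held both sexes. In sums over all amacrine cells, sex and dose therefore cannot be told apart between 0 and 500 nM. Cells with a *Xist* UMI and no Y-linked UMI, 169 and 66 at 0 nM and 161 and 189 at 500 nM, were also compared on their own.

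The deposited name was checked against 4 markers (*Tfap2a*, *Tfap2b*, *Gad1* and *Slc32a1*). Levels are counts per 1000000 UMIs (CPM), from UMIs summed over cells. *Tfap2b*, on GRCm38 chr1:19208914-19238576, stood at 1048 CPM in the amacrine cells, and at 45.6, 41.8 and 56.8 CPM in primary progenitors, neurogenic progenitors and photoreceptors. *Tfap2a* (chr13:40715302-40738376) stood at 193 CPM in amacrine cells and at 8.42 to 10.5 CPM in those 3 types. *Gad1* (chr2:70553072-70602014), which encodes the GABA-synthesising enzyme GAD67, was at 58.6 CPM against 3.56 to 6.05 CPM. *Slc32a1* (chr2:158610767-158615748), the vesicular transporter of GABA and glycine, was at 53.3 CPM against 1.81 to 3.19 CPM. All 4 markers were therefore highest in amacrine cells among these 4 types. The RGC-named cells, only 200 in number, were closer. They had 411 CPM of *Tfap2b*, 58.1 of *Tfap2a*, 44.7 of *Gad1* and 56.6 of *Slc32a1*, the last above the amacrine level. At least 1 *Tfap2b* UMI was found in 74.1% of amacrine cells, against 14.1% of photoreceptors and 14.1% of primary progenitors, whose median cells held 2642.5 and 4548 UMIs. The share for *Gad1* was 18.1%, against 1.81% of photoreceptors.

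Every explant held all 4 markers. *Tfap2b* was at 1058 and 1345 CPM at 0 nM, 1098 and 972 at 5 nM, 810 and 928 at 50 nM, and 1106 and 1090 at 500 nM. The lowest pair was at 50 nM, and the 500 nM pair lay within the range of the controls. *Slc32a1* was at 56.0 and 55.03 CPM at 0 nM, 63.1 and 40.1 at 5 nM, 52.5 and 45.4 at 50 nM, and 55.2 and 63.0 at 500 nM. *Pax6*, a homeobox factor kept by amacrine cells, spanned 1146 to 1219 CPM over the 8 explants, with a UMI in 96.9% of amacrine cells.

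The genes that set the amacrine cells farthest apart from every other explant type were named by the ratio of their CPM to that of the next type, among genes with at least 50 CPM in amacrine cells. As the cell types were built from these genes, the ratios are descriptions. They were led by *Cxcl14*, a secreted chemokine, at 461 CPM and 51.6 times the next type. *C1ql2*, a secreted C1q-like synaptic protein, followed at 59.1 CPM and 30.4 times, then *Prdm13*, a transcription factor of amacrine subtypes, at 313 CPM and 23.0 times. *Crabp1*, which binds retinoic acid, was at 543 CPM and 16.6 times. *Gad2*, which encodes GAD65, stood at 334 CPM and 7.24 times, and *Ptf1a* at 147 CPM and 6.32 times. The other 9 of the 15 leading genes were *Tfap2c*, *Slc1a6*, *St18*, *Cbln2*, *Phlda1*, *Plppr5*, *Kcna1*, *Ptprt* and *Nr4a2*.

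Genes of GABA signalling were present throughout, while those of other amacrine classes were sparse. All 8 GABA genes on the list had over 20 CPM. Of 5 glycine genes only the receptor gene *Glra2* did, at 31.4 CPM. The glycine transporters *Slc6a9* and *Slc6a5* were at 4.53 and 0.625 CPM. The cholinergic genes of starburst amacrine cells were near 0. *Chat*, which makes acetylcholine, had 0.625 CPM, and the choline transporter gene *Slc5a7* had 0 of 6399866 UMIs, which allows up to 0.469 CPM. *Isl1* and *Megf10*, both known in starburst cells, stood at 12.2 and 1.25 CPM in the amacrine cells and at 779 and 98.3 CPM in the RGC-named cells.

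**Figure D1:**
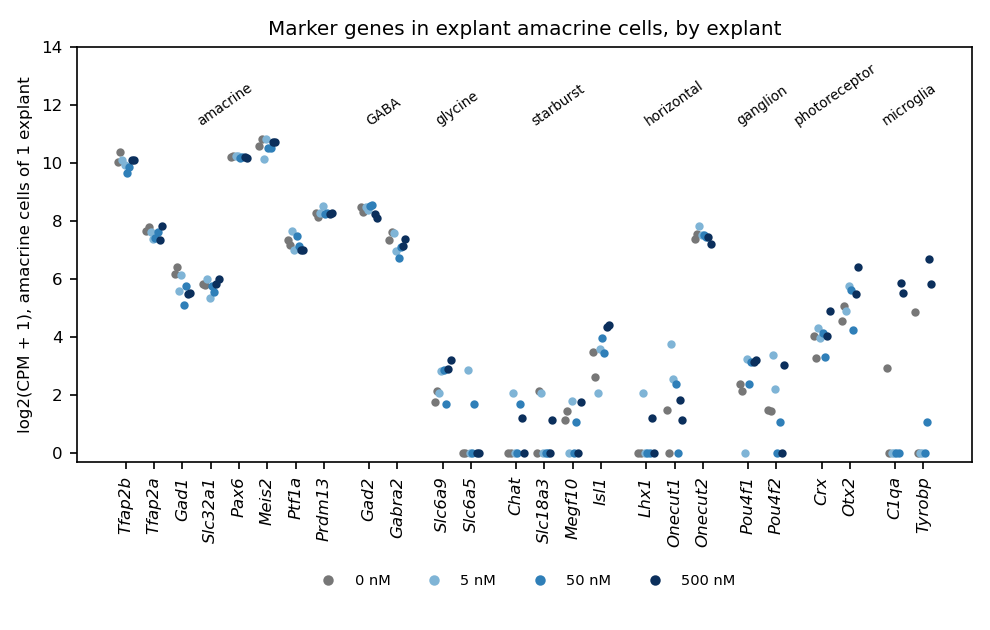
Level of marker genes in the amacrine cells of each explant, as log2(CPM + 1) on the vertical axis, with 1 point per explant coloured by dose and genes grouped by the cell type or transmitter they mark. The amacrine and GABA genes are detected in all 8 explants, while the microglia genes *C1qa* and *Tyrobp* are at 0 in at least 4 explants each and highest in both at 500 nM.

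Markers of other types were read for every list. Of 8 horizontal cell genes, which summed to 244 CPM, 2 were above 20 CPM. *Onecut2* stood at 173 CPM, and at 149 CPM in photoreceptors. *Prox1* stood at 43.3 CPM, with 141 CPM in 1 group of cells (sub-cluster 6, described with the UMAP). *Lhx1* was at 0.313 CPM (2 UMIs) and *Onecut1* at 2.50 CPM. The ganglion cell factors *Pou4f1* and *Pou4f2* were at 5.94 and 2.66 CPM, against 419 and 56.6 CPM in RGC-named cells. That list summed to 273 CPM and was led by *Gap43*, a growth cone gene that young neurons share, at 132 CPM. Photoreceptor markers summed to 256 CPM, led by *Neurod1* at 131 CPM, with the photoreceptor factor *Crx* at 15.8 CPM. Neurogenic progenitor markers summed to 821 CPM, led by *Hes6* at 215 CPM, and primary progenitor markers to 339 CPM, led by *Hes5* at 112 CPM. The bipolar list summed to 27.2 CPM, led by *Prkca* at 12.8 CPM, with *Vsx1* and *Grm6* at 0. The list of Muller glia and astrocytes summed to 199.5 CPM, led by *Glul*, the glutamine synthetase gene, at 73.9 CPM, with *Gfap* and *Pax2* at 0. *Sst*, the somatostatin gene, gave 1 UMI in all amacrine cells. Its receptor *Sstr2* gave 44 UMIs, or 6.88 CPM with a UMI in 2.62% of cells, against 110 CPM and 27.3% in neurogenic progenitors, whose median cell held 4526.5 UMIs. Photoreceptors, with fewer UMIs per cell, had a UMI in 1.99%. Within the amacrine cells *Sstr2* was at 26.1 and 19.5 CPM in sub-clusters 2 and 3 and at 7.15 CPM or less in the others.

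Microglia markers were held by a handful of cells. Of 409 UMIs of the 6 listed genes, 406 lay in 6 cells that each had at least 2 of these genes. Of these 6 cells, 5 carried 36 to 190 microglia UMIs each with no *Tfap2b* and no *Pax6* UMI. Of the 5, 1 was in 0 nM replicate 1, 1 in 500 nM replicate 1 and 3 in 500 nM replicate 2. The sixth cell, in 0 nM replicate 1, had 3 such UMIs beside 2 of *Tfap2b*. By explant the list summed to 44.1 CPM in 0 nM replicate 1, to 1.11 CPM in 50 nM replicate 2, to 244 and 171 CPM at 500 nM, and to 0 in the other 4 explants.

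The amacrine cells were divided by Leiden clustering into 8 sub-clusters of 30 to 274 cells, to describe how markers vary within the population. The clusters were built from the same expression values, so no test was made between them. Sub-clusters 3 and 6, with 182 and 229 cells, led in *Ptf1a* and *Prdm13*. *Ptf1a* was at 549 and 364 CPM and *Prdm13* at 993 and 894 CPM there. *Atoh7*, a bHLH factor of neurogenic progenitors, was at 431 CPM in sub-cluster 3 and at no more than 42.9 CPM in any other. All 6 cells with microglia genes fell in sub-cluster 3.

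**Figure D2:**
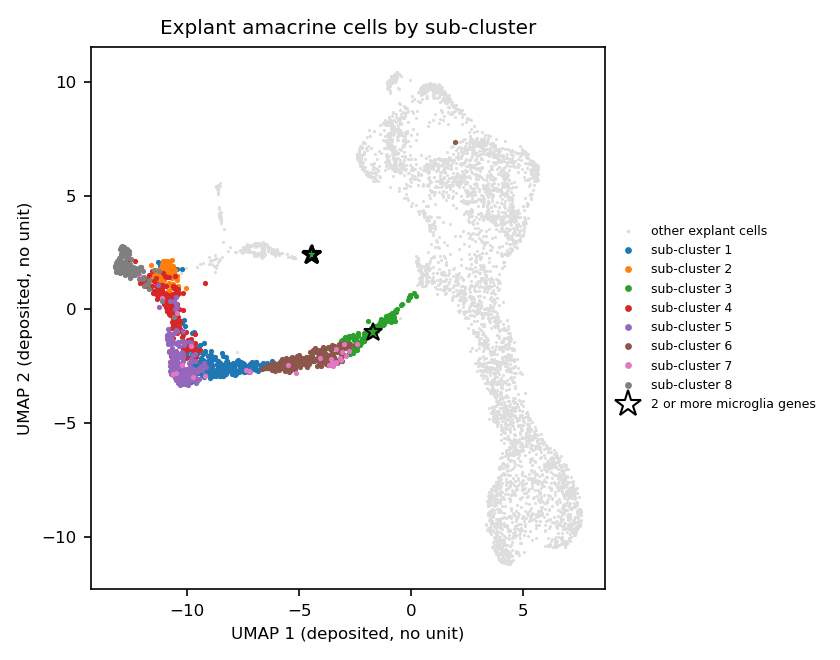
Deposited UMAP coordinates of the explant cells, which have no unit, with amacrine cells coloured by sub-cluster and all other cells in grey. Amacrine cells form 1 curved band, and 5 of the 6 cells with at least 2 microglia genes (stars, overlapping) lie apart from it.

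The 2 glutamate decarboxylase genes differed in where they were found. *Gad2* was highest in sub-clusters 6 and 1, at 573 and 563 CPM, where *Gad1* was at 4.77 and 9.17 CPM. *Gad1* was highest in sub-clusters 2 and 8, at 207 and 183 CPM, where *Gad2* was at 119 and 130 CPM. A *Gad1* UMI was found in 4.01% of cells of sub-cluster 1 and in 53.2% of sub-cluster 2, and a *Gad2* UMI in 86.5% and 31.5%. In 8 of 8 explants every one of sub-clusters 2, 4 and 8 had more *Gad1* than any of sub-clusters 1, 3 and 6. These were grouped so after their levels were seen in the same cells, so the agreement is a description. Sub-clusters 5 and 7 were left out. In 5 nM replicate 1 sub-cluster 5, at 103 CPM, was above sub-clusters 2 and 4, at 91.4 and 81.0 CPM. *Tfap2b* was at 2024, 1855 and 2905 CPM in sub-clusters 4, 2 and 8, and at no more than 622 CPM in the others. *Meis2*, a homeobox factor of GABAergic amacrine cells, was at 98.8 CPM in sub-cluster 3 and at 2755 CPM in sub-cluster 5. *Lhx9* was at 201 and 235 CPM in sub-clusters 1 and 5 and gave no UMI in sub-clusters 2 and 8. Sub-cluster 7 had 30 cells, 17 of them marked by Scrublet, with the photoreceptor genes *Gngt2* at 593 CPM and *Otx2* at 536 CPM.

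**Figure D3:**
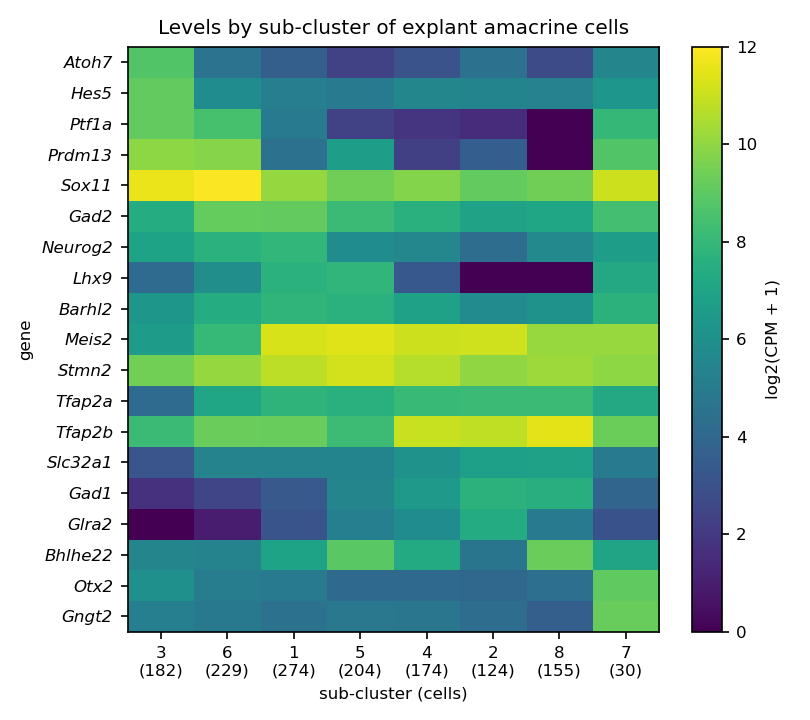
Level of selected genes in each sub-cluster of explant amacrine cells, as log2(CPM + 1) of the summed UMIs, with the number of cells under each column. *Ptf1a* and *Prdm13* are high on the left, *Tfap2b* and *Gad1* in sub-clusters 4, 2 and 8, and *Otx2* and *Gngt2* in sub-cluster 7.

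The first question of the design was whether the amacrine share changed with dose. It was 33.0% and 25.8% of cells at 0 nM, 20.8% and 18.1% at 5 nM, 24.6% and 24.4% at 50 nM, and 23.9% and 22.0% at 500 nM. The means ± SD (n = 2 each) were 29.4% ± 5.12, 19.4% ± 1.85, 24.5% ± 0.147 and 22.9% ± 1.37 in order of dose. Both controls lay above all 6 treated explants, and among the treated explants the lowest pair was at 5 nM. No relation with log10(dose + 1) was found. Pearson's r was −0.36 (two-sided exact permutation p = 0.404, adjusted over 5 cell types 0.673). The rank correlation (Spearman's rho) was −0.39, with an exact permutation p of 0.361 (adjusted 0.451). Without both 500 nM explants, the farthest from the median dose, r was −0.39 (exact permutation p = 0.489). Without 0 nM replicate 1 r was 0.086.

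The direction also turned with the denominator. Among amacrine cells, photoreceptors and RGC-named cells together, the amacrine share was 46.2% and 42.2% at 0 nM, 33.5% and 37.5% at 5 nM, 42.3% and 41.9% at 50 nM, and 41.4% and 47.1% at 500 nM. The doses at 0 and 500 nM then overlapped, and r was 0.23 (exact permutation p = 0.589). Amacrine cells per photoreceptor numbered 0.881 and 0.752 at 0 nM and 0.738 and 1.21 at 500 nM. A share cannot tell more amacrine cells from fewer cells of another type.

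**Figure D4:**
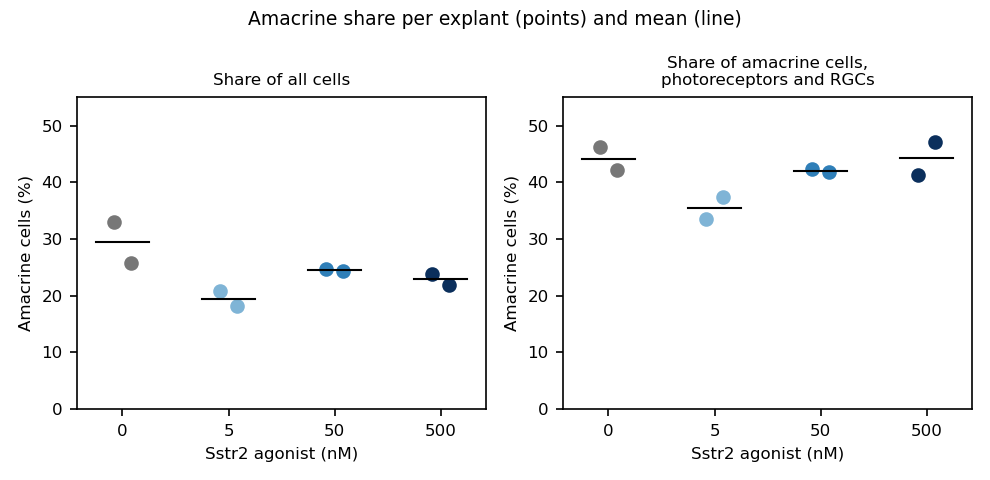
Amacrine cells as a percentage of all cells (left) and of amacrine cells, photoreceptors and RGC-named cells (right), by dose of the Sstr2 agonist in nM, with 1 point per explant and a line at the mean of 2 explants. On the left both controls are above every treated explant, and on the right the 0 and 500 nM explants overlap.

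The second question was which genes changed within the amacrine cells. UMIs were summed per explant and tested by edgeR's quasi-likelihood test with adjustment over all 8188 genes. Against 0 nM, 22 genes passed an adjusted p of 0.05 at 500 nM (0.269% of genes tested), 18 higher and 4 lower. At 50 nM 13 passed (0.159%), 3 of them higher, and at 5 nM 9 passed (0.11%), 5 of them higher. The 3 comparisons share their controls. A slope on log10(dose + 1) gave 10 genes (0.122%), all among the 22. At an unadjusted p under 0.05 there were 432, 495, 459 and 407 genes, or 4.97% to 6.05%. By DESeq2 the adjusted counts were 1, 0, 0 and 0, the 1 being *Lyz2*, and at an unadjusted p under 0.05 49, 65, 45 and 118.

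At 500 nM, where 0.269% of all genes passed, none of the 4 identity markers, of 17 tested fate factors, of 8 GABA genes or of 14 tested synapse and neurite genes passed, with median log2 fold changes of −0.098, −0.031, −0.143 and −0.056 beside −3.3e-04 for all genes. *Gad1* had the lowest log2 fold change of the 4 identity markers. It was at 70.3 and 84.3 CPM at 0 nM, 47.3 and 69.2 at 5 nM, 33.6 and 53.1 at 50 nM, and 43.7 and 45.2 at 500 nM. Both controls were above both explants at 500 nM, a pattern that 18.3% of the 6757 genes compared showed (16.2% showed the reverse). Its log2 fold change was −0.74 ± 0.217 (SE), which did not pass (edgeR adjusted p = 0.302). *Gad2* was at 354 and 315 CPM at 0 nM and at 299 and 272 CPM at 500 nM, with a log2 fold change of −0.25 (edgeR adjusted p = 0.889). The log2 fold change of *Tfap2b* was −0.10 and that of *Slc32a1* was 0.090.

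Of the 22 genes at 500 nM, 9 had at least 79.7% of their amacrine UMIs in the 6 cells with microglia genes. They were the complement genes *C1qa*, *C1qb* and *C1qc*, the myeloid receptor genes *Tyrobp* and *Trem2*, and *Lyz2*, *Apoe*, *Cyba* and *Selenop*. *Tyrobp*, an adaptor of immune receptors, was at 28.0 and 0 CPM at 0 nM and at 101 and 55.9 CPM at 500 nM (log2 fold change 1.95, edgeR adjusted p = 3.64e-04). *Apoe*, which carries lipids, was at 66.1 and 8.60 CPM at 0 nM and at 270 and 127 CPM at 500 nM (log2 fold change 1.98, edgeR adjusted p = 1.26e-06). These values turned on single explants. Leaving out 1 explant at a time, the log2 fold change spanned 1.46 to 8.73 for *Tyrobp* and 1.35 to 4.51 for *Apoe*, highest without 0 nM replicate 1. *Tyrobp* did not pass without 500 nM replicate 1. The cathepsin genes *Ctsd* and *Ctsb* rose by 0.96 and 1.23 on the log2 scale, with 41.6% and 40.1% of their UMIs in those cells. Without the 6 cells, a choice made after seeing the data, 11 genes passed at 500 nM. All 11 were among the 22, and none was one of these 11 myeloid or lysosomal genes. *Ctsb* then had a log2 fold change of −0.58.

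Another 4 genes had 25.2% to 35.02% of their UMIs in sub-cluster 7 and their highest level in photoreceptors. *Otx2*, a homeobox factor of photoreceptors, was at 22.6 and 32.7 CPM at 0 nM and at 43.7 and 84.5 CPM at 500 nM (log2 fold change 1.34, edgeR adjusted p = 0.0105). *Gngt2* and *Gnb3*, subunits of the cone transducin, rose by 1.37 and 1.38 on the log2 scale, and *Fabp7*, a fatty-acid carrier, by 0.81. Of the 8 fits that left out 1 explant, *Gnb3* did not pass in 3, *Fabp7* and *Otx2* in 2 each, and *Gngt2* in 1, that without 500 nM replicate 2. Also without sub-cluster 7, 7 genes passed and none of these 4 was among them. Of the 24 cells that Scrublet marked, 16 were in the explants at 500 nM and 2 in those at 0 nM.

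The remaining 7 genes included 4 of sex. *Xist* was at 1169 and 1238 CPM at 0 nM and at 2618 and 2779 CPM at 500 nM (log2 fold change 1.17 ± 0.112 SE, edgeR adjusted p = 4.66e-10). *Tsix*, its antisense gene, rose by 0.97, while the Y-linked *Ddx3y* and *Eif2s3y* fell. The 3 others were *Ccnd1*, *Gal* and *Cldn5*. *Ccnd1*, a cyclin abundant in progenitors, was at 41.1 and 60.2 CPM at 0 nM and at 62.9 and 133 CPM at 500 nM. Its log2 fold change was 1.08 (edgeR adjusted p = 0.00820). The rise rested on 500 nM replicate 2, without which it was 0.45, and it did not pass without 0 nM replicate 1 either (0.74).

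*Gal*, which encodes the neuropeptide galanin, was at 20.9 and 13.8 CPM at 0 nM, 12.6 and 13.4 at 5 nM, 71.4 and 21.0 at 50 nM, and 0 and 1.19 at 500 nM. Both explants at 500 nM were below the other 6. The fitted log2 fold change was −4.61 (edgeR adjusted p = 0.00220), from 43 UMIs at 0 nM and 1 at 500 nM. The 112 UMIs of *Gal* lay in 22 cells, with 29.5% of them in 1 cell, and 87.5% were in sub-cluster 3. It did not pass without 0 nM replicate 1 or 500 nM replicate 1. *Cldn5*, a tight junction gene of endothelium, was at 70.9 and 15.5 CPM at 0 nM and at 6.42 and 9.52 CPM at 500 nM (log2 fold change −2.71, edgeR adjusted p = 2.02e-04). Without 0 nM replicate 1, which held 119 of its 174 UMIs, the log2 fold change was −0.91 and did not pass. The other endothelial genes found summed to 11 UMIs, and 68.4% of the *Cldn5* UMIs were in sub-cluster 3.

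**Figure D5:**
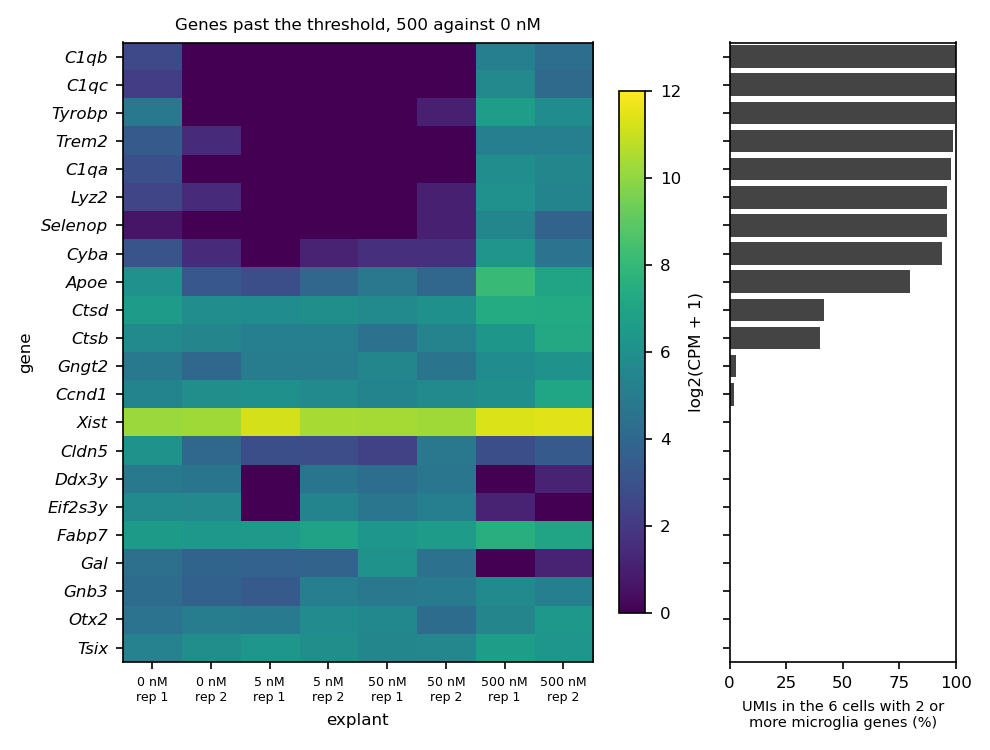
The 22 genes past the threshold at 500 against 0 nM, as log2(CPM + 1) in the amacrine cells of each explant (left), and the percentage of each gene's amacrine UMIs that lay in the 6 cells with at least 2 microglia genes (right). The 9 upper genes have 79.7% to 100% of their UMIs in those cells.

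The comparison was repeated in the 913 cells with a *Xist* UMI and no Y-linked UMI. There 2 genes passed at 500 nM, *Apoe* and *Gngt2*, among 6680 genes in edgeR's test, where 337 were below an unadjusted p of 0.05. *Ccnd1* and *Gal* did not pass there, with log2 fold changes of 0.99 and −4.35 beside 1.08 and −4.61 in all cells, and with the percentage of *Xist*-positive cells as a covariate their log2 fold changes were 0.68 and −4.88, without passing (edgeR adjusted p = 0.939 and 0.341). With that covariate 5 genes passed at 500 nM, and 0 of them were among the 22. These alternatives also test fewer cells or spend a degree of freedom, and the cause of the lost calls was not tested.

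The named genes also included the 10 largest rises and falls in mean CPM with no overlap between 0 and 500 nM. Of the rises, *Arpc1b*, at 16.7 and 6.88 CPM against 18.0 and 40.4, and *Sema4g*, at 12.5 and 8.60 CPM against 21.8 and 24.98, did not pass. Of the falls, *Krt73*, *Anks1*, *Cib2*, *C1ql1* and *Ctu2* did not pass either.

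At 50 nM, 10 of the 13 genes were lower. Among them was *Tfap2b*, whose log2 fold change was −0.44 ± 0.096 (SE, edgeR adjusted p = 0.0312). Sub-cluster 8, where *Tfap2b* was highest, held 12.1% and 15.3% of amacrine cells at 0 nM and 4.90% and 8.29% at 50 nM. Whether this bears on the fall was not tested. Both 50 nM explants, at 810 and 928 CPM, were below both controls, but the gene no longer passed without 0 nM replicate 2 or either 50 nM explant. *Cbln2*, a synaptic organiser and 1 of the 15 leading amacrine genes, was at 214 and 296 CPM at 0 nM and at 151 and 128 CPM at 50 nM (log2 fold change −0.83, edgeR adjusted p = 0.00466). At 500 nM it was at 205 and 199 CPM, and the fall at 50 nM did not pass without 0 nM replicate 2 or 50 nM replicate 2. *Ubb*, a ubiquitin gene, fell by 0.60 on the log2 scale and passed without any of the explants left out in turn. The linker histone genes *H1f0*, *Hist1h1e* and *Hist1h1b* fell by 0.65, 0.52 and 0.96, but did not pass in 2, 3 and 4 of the 8 fits that left out 1 explant. *Jun*, an immediate early factor, and *Cngb3*, a cone channel gene, fell by 1.00 each, and did not pass in 3 and 2 of those fits. Like *Tfap2b*, the genes *Jun*, *Cngb3* and *Ubb* were highest in sub-cluster 8, at 231, 427 and 2982 CPM. *Cbln2* and the linker histone genes were highest in other sub-clusters. Whether the lower share of sub-cluster 8 at 50 nM bears on these falls was not tested. *Tyrobp* and *Spp1* were the other 2 lower genes, and both turned upward without 0 nM replicate 1, which held a cell with microglia genes.

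The 3 genes higher at 50 nM were *Atoh7*, *Gnai2* and *Bbx*, of which *Bbx* did not pass in 4 of those fits. *Atoh7* was at 38.7 and 27.5 CPM at 0 nM, 101 and 87.4 at 5 nM, 170 and 79.7 at 50 nM, and 82.2 and 52.3 at 500 nM. All 6 treated explants were above both controls, and the highest dose did not have the highest level. The share of all genes with this order was not counted. Its log2 fold change was 1.66 at 50 nM (edgeR adjusted p = 1.71e-04) and 1.35 at 5 nM (edgeR adjusted p = 0.0130). The gene is highest in neurogenic progenitors, at 1478 CPM, and 84.1% of its amacrine UMIs were in sub-cluster 3. *Gnai2*, a subunit of inhibitory G proteins, was at 108 and 110 CPM at 0 nM and at 191 and 198 CPM at 50 nM (log2 fold change 0.83, edgeR adjusted p = 0.00180). It stood at 183 and 164 CPM at 5 nM and at 125 and 165 CPM at 500 nM, again above both controls, without passing at those doses. It did not pass without 0 nM replicate 1 or 50 nM replicate 2. Its log2 fold change at 50 nM spanned 0.81 to 0.85 leaving out 1 explant at a time. Of its UMIs, 55.03% were in sub-cluster 3. It was the only gene of 7 tested among somatostatin receptors and the Gi pathway to pass at any dose (0.159% of all genes passed at 50 nM). None of these 3 higher genes passed edgeR's test at 50 nM in cells with a *Xist* UMI and no Y-linked UMI. By DESeq2 no gene passed at 50 nM (65 at an unadjusted p under 0.05).

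At 5 nM, *Hes5*, a Notch target of progenitors, was at 75.1 and 112 CPM at 0 nM and at 177 and 165 CPM at 5 nM (log2 fold change 0.97, edgeR adjusted p = 0.00843). It was at 69.3 and 114 CPM at 500 nM, where the explants overlapped the controls. *Robo1*, an axon guidance receptor, reached 92.3 CPM in 5 nM replicate 2 and 22.4 to 34.3 CPM elsewhere, and its log2 fold change of 1.27 turned to −0.063 without that explant. It was highest in sub-cluster 5, at 180 CPM, which held 27.6% of amacrine cells in that explant and 9.09% to 17.1% in the others. *Sncb*, a presynaptic gene, fell by 1.00 on the log2 scale, from 94.2 and 107 CPM to 53.7 and 47.3 CPM, and did not pass in 3 of the 8 fits that left out 1 explant. *Xist* passed with a log2 fold change of 0.61, from 1169 and 1238 CPM to 2402 CPM in 5 nM replicate 1, whose cells nearly all held *Xist*, and 1388 CPM in replicate 2. Leaving out 1 explant at a time it spanned 0.20 to 1.01, lowest without 5 nM replicate 1. *Rsph10b*, with 92 amacrine UMIs in all, rose by 1.99 (1.78 to 2.35 leaving out 1 explant at a time), while *Cldn5*, *Spp1* and *Tyrobp* fell. Without 0 nM replicate 1 *Spp1* turned to 2.51 and *Tyrobp* to 0. Without 0 nM replicate 1 no gene passed at 5 nM by edgeR (439 at an unadjusted p under 0.05).

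The nearest population in the series is the 1013 amacrine cells of 5 P0 retinas of *Sstr2* +/+, +/- and -/- littermates (1, 2 and 2 retinas) on C57BL/6 / CD1. Library, culture, strain and genotype all differ, so these cannot be told apart. The mix of sexes differed too. *Xist* was found in 3.21%, 1.72% and 3.26% of amacrine cells in +/+ replicate 1, +/- replicate 2 and -/- replicate 1. It was found in 100% in +/- replicate 1 and -/- replicate 2. The cells also differ in filtering. The median P0 amacrine cell had 7332 UMIs and 2751 genes, and 763 of the 1013 (75.3%) exceeded the 2499 genes that no explant cell passed. For that reason the comparison was repeated with the 250 P0 cells of up to 2499 genes, an alternative chosen after seeing the data. In all cells, 3151 of 9416 genes (33.5%) passed edgeR's test, 1431 higher (15.2%) and 1720 lower (18.3%) in the explants. With the limit 1735 of 7787 genes passed (22.3%), 10.2% of those tested higher and 12.1% lower. Of 2839 genes called in all cells and tested in both, 1241 passed in the same direction with the limit and 37 in the opposite one.

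*Tfap2a* was lower in explants both ways. It spanned 162 to 225 CPM in explants, median 196, and 288 to 328 CPM in retinas, median 308, with no overlap. The log2 difference was −0.73 ± 0.071 (SE, edgeR adjusted p = 5.02e-09), and −0.83 with the limit. *Slc32a1* spanned 40.1 to 63.1 CPM in explants and 64.9 to 85.8 CPM in retinas, with log2 differences of −0.48 (edgeR adjusted p = 0.00241) and −0.60. It did not pass at 0 nM against +/+ and +/- retinas (−0.33, edgeR adjusted p = 0.218) or by DESeq2 (adjusted p = 0.0566). The ranges of *Tfap2b* overlapped, at 810 to 1345 and 751 to 1180 CPM, and it did not pass in either form. *Gad1* spanned 33.6 to 84.3 and 41.7 to 64.3 CPM. Its log2 difference was −0.036 in all cells and did not pass, but 1.61 with the limit (edgeR adjusted p = 1.35e-05). *Gad2* moved the other way, from 0.12 in all cells to −0.43 with the limit (edgeR adjusted p = 8.34e-05).

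Among the fate factors, 5 of 18 were higher and 6 lower in explants, with medians of 0.032 for the list and −0.0095 for all genes. Of all genes 15.2% were higher and 18.3% lower. With the limit 3 of 18 factors were higher and 8 lower, with a median of −0.25, beside 10.2% and 12.1% of all genes. *Lhx9* was lower both ways (log2 differences −1.05 and −1.06), at 60.0 to 116.5 CPM against 180 to 195 CPM. *Lmo4*, a LIM-only cofactor, was lower both ways (−2.34 and −2.44), at 94.0 to 119 CPM against 329 to 583 CPM. *Prdm13* was higher in all cells (0.56, edgeR adjusted p = 3.57e-08) and lower with the limit (−0.37, edgeR adjusted p = 5.65e-04). The limit thus set the direction for *Prdm13*. Of 10 tested neurogenic progenitor markers, 5 were higher in all cells, beside 15.2% of all genes, among them *Atoh7* (1.27) and *Neurog2* (0.59). With the limit none was higher and 2 were lower, *Hes6* and *Btg2*, beside 10.2% and 12.1% of all genes. *Atoh7* was then 0.57 and *Neurog2* −0.31, and neither passed.

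Of 8 starburst genes 4 were tested against P0, and all 8 horizontal cell genes were. Of these only *Isl1*, *Sox2*, *Prox1*, *Onecut2* and *Sept4* had enough UMIs to be tested among explants alone. The others passed the filter on low counts only with the retinas included, so no count of lower genes is given. *Isl1* spanned 3.16 to 20.2 CPM in explants and 11.9 to 56.2 CPM in retinas (log2 difference −1.38, edgeR adjusted p = 4.55e-06). *Lhx1* gave 2 UMIs in all explants and 0 to 71.7 CPM in retinas, median 25.2. With each cell thinned to 3000 UMIs the log2 difference of *Isl1* was −0.20 and did not pass.

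*Stmn2*, a gene of growing neurites, was higher in explants both ways (log2 differences 0.51 and 0.82), at 1215 to 1557 CPM against 892 to 1106 CPM. *Snap25*, on the synapse and neurite list, was lower in all cells (−0.66) and at −0.021 with the limit, where it did not pass. That list had 1 of 16 genes higher in all cells, but only 14 of the 16 had enough UMIs to be tested among explants alone. For that reason no count of lower genes is given for all cells. With the limit 4 of 13 were higher and 1 lower, with a median of 0.30. Of all genes 15.2% were higher in all cells, and with the limit 10.2% were higher and 12.1% lower. *Cldn5* was lower both ways (−2.26 and −3.56), but at 0 nM against +/+ and +/- retinas alone it was −0.71 and did not pass (edgeR adjusted p = 0.0800). *Tac1*, the gene of substance P, passed the filter on low counts only with the retinas included, so no difference is given for it. *Cplx2* and *Cacna1d*, a complexin and a calcium channel subunit, were lower both ways, by log2 differences of −1.92 and −1.95 in all cells and of −2.49 and −2.14 with the limit. The linker histone gene *Hist1h1e* was higher (1.93 and 2.10), as was *H2-D1*, of class I MHC (1.59 and 2.23).

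Among the largest differences were those of 2 ribosomal protein genes and *Gm42418*, a locus that overlaps ribosomal RNA. *Rps28* spanned 534 to 598 CPM in explants and 3104 to 3329 CPM in retinas (log2 difference −2.51, and −2.82 with the limit). *Rpl29* differed by −2.94 and −3.24, and *Gm42418* by 2.30 and 2.20. Of 81 tested cytosolic ribosomal protein genes, 25 were higher and 38 lower in all cells, beside 15.2% and 18.3% of all genes. Their median log2 difference was −0.0997, beside −0.0095 for all genes. All 8 mitochondrially encoded genes were higher in explants, beside 15.2% of all genes, and 7 of them with the limit, beside 10.2%.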

How the data were processed

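MULTI-seq libraries were made with 10x Chromium 3′ reagents. The authors assigned cells to samples with deMULTIplex and annotated types from cluster markers. The submitters' processing notes name Cell Ranger 3.1.0, Seurat 3 and mm10. The deposited tables hold raw UMI counts, whole numbers with no normalization by the authors. The filter on cells is not given in the sources used here. Explant and dose were read from the group and replicate recorded for each cell.

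Counts of amacrine cells were summed per explant and tested in edgeR 4.0.16 (R 4.3.3; TMM, filterByExpr, quasi-likelihood test, Benjamini-Hochberg threshold 0.05), with dose as a factor and all 8 explants in 1 fit. Explants and P0 retinas were fitted together in a second model over genes in both files. The SE given with an edgeR value is the absolute log2 fold change divided by the square root of the test's F statistic. Shares were tested by exact permutation of doses (2520 arrangements). Cells were clustered in scanpy 1.11.5 (2000 variable genes without sex and mitochondrial genes, 20 components, 15 neighbours, resolution 0.5). Scrublet marked 24 explant amacrine cells. At P0 it marked 6 cells in all, taken as a failed call. All doublets were kept except in the alternative without them.

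The cells, gene lists and tests were chosen with earlier results of these data known. Named genes were list members, up to 10 per direction past the threshold in each dose comparison, the 10 largest non-overlapping changes per direction at 500 nM among genes with at least 100 UMIs, the 10 largest per direction against P0, and the 15 leading amacrine genes. Others are named as examples. Some genes under this rule are not reported here. All 255 named symbols were placed with GENCODE M21 on GRCm38. *Cdh5*, *Rpe65*, *Tyr*, *Vip*, *Crh*, *Sstr3*, *Sstr4* and 4 globin genes were not in the explant table used here. Mitochondrial genes took 5.19% to 6.55% of amacrine UMIs by explant.

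On simulated counts for 500 against 0 nM with 200 genes changed, edgeR recovered 82.5% of 2-fold changes among 8132 genes with 6 false calls, and DESeq2 1.42.0 43% with 0. For 4-fold changes among 8143 genes it was 100% and 95.5%. Intervals and floors (3 counts) cover counting error only. P14 cells were not used here. Python 3.11.15, numpy 2.4.6, scipy 1.17.1, pandas 2.3.3 and matplotlib 3.10.9 served the rest.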

Additional observations from a re-analysis of the deposited data

How the results depend on the processing

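The counts of genes past the threshold, 22, 13 and 9 at 500, 50 and 5 nM and 10 for the trend, did not change with DESeq2's size factors. With no filter on low counts 39, 27, 13 and 39 passed, and with DESeq2's own test 1, 0, 0 and 0. In cells with a *Xist* UMI and no Y-linked UMI 2, 3, 0 and 3 passed by edgeR (331 at 5 nM at an unadjusted p under 0.05). There *Tsix* at 500 nM was −0.014 and *Jun* at 50 nM was 0.077 on the log2 scale. With the percentage of *Xist*-positive cells as a covariate 5 passed at 500 nM, 0 of them among the 22. For the trend 0 passed (447 at an unadjusted p under 0.05 by edgeR). With this covariate *Cldn5* was 3.55, *Selenop* −0.52 and *Slc32a1* −0.60 at 500 nM. Without cells with horizontal or ganglion cell marker UMIs 3 passed at 5 nM. Without doublets *Fabp7* was −0.079. Without the 6 cells with microglia genes 11 passed at 500 nM and 4 for the trend, and *Ctsb* was −0.58. Also without sub-cluster 7 these counts were 7 and 3, with *Ctsb* at −0.58 and *Fabp7* at −0.00051. Both of these alternatives, and the limit on genes at P0, were chosen after seeing the data. Leaving out 1 explant at a time, where a lone explant is assumed to vary like the other groups, gave 18 to 35 genes at 500 nM, 5 to 29 at 50 nM, 0 to 15 at 5 nM and 7 to 24 for the trend. The log2 fold changes then spanned −0.34 to 0.10 for *Tfap2a* and −0.27 to 0.041 for *Tfap2b* at 500 nM. They spanned −7.93 to 4.58 for *Spp1* and −7.00 to 2.29 for *Tyrobp* at 50 nM, and −7.96 to 2.51 for *Spp1* and −0.063 to 1.70 for *Robo1* at 5 nM. The amacrine share against dose had r from −0.57 to 0.086 and rho from −0.61 to −0.092, and among neurons r was 0.23 and rho 0.098. Against P0, 3151 genes became 1664 with DESeq2, 1689 for 0 nM against +/+ and +/- retinas, 1988 with thinned cells, 1735 with the limit on genes, and 2716 to 3140 without 1 sample. *Gad1* then was 0.29, 0.19 and 1.61 (0 nM, thinned, limit) and spanned −0.13 to 0.067 without 1 sample. *Tfap2b* was −0.028 (thinned) and −0.069 (limit), and spanned −0.063 to 0.16. With the limit *Gad2* was −0.43, *Neurog2* −0.31, *Npy* 0.44 and *Prdm13* −0.37. *Npy* did not pass with the limit (SE 0.97, edgeR adjusted p = 0.805), and it was −3.78 in all cells. Like *Tac1*, *Npy* passed the filter on low counts only with the retinas included, so no direction is drawn for it. Apart from smaller samples and fewer genes tested, the causes of the changes between settings were not tested. No paired analysis was possible because each explant carries a sample barcode of its own, and the replicate numbers used here only follow barcode order within a dose and pair nothing across doses. Depth limits rare genes most, since 66 cells in 1 explant gave 316855 UMIs.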
